A study of Mus musculus with 24 samples.

Results

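The 5 genes described here encode cytokines of the interleukin-6 family and the receptor chains they use: the ligands Il6, Lif (leukaemia inhibitory factor) and Osm (oncostatin M), the IL-6-binding chain Il6ra and the shared signalling chain Il6st, also called gp130. They were taken by name from the 18919 genes of a count table of RNA from primary mouse microglia, the resident macrophages of the brain. All 5 were listed and all 5 passed the filter on low counts, Lif through stimulated groups, since it held at most 2 counts in any untreated library. The 24 libraries came from C57BL/6 mice (WT) and from the strain B6.129S4-Cd14tm1Frm/J (KO), which carries a targeted allele of Cd14. In each genotype there were 4 treatments with 3 libraries each: untreated cells, Re-LPS (a lipopolysaccharide with a truncated sugar chain) at 0.1 ng/ml, Re-LPS at 10 ng/ml, and mouse fibronectin (FN), a matrix and plasma glycoprotein, at 100 µg/ml. Stimulation lasted 3 h in every treated group, and the labelled age of the animals was p0 in all 8 groups. The series describes 3 separate cell preparations for each condition. The labels do not say whether a preparation pooled several animals or which tissue site was used.

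CD14 is a surface protein without a signalling domain of its own that hands LPS to the receptor complex of TLR4 and MD-2. Signals from that complex switch on cytokine genes through NF-kB and AP-1 factors. IL-6 binds IL-6 receptor alpha (Il6ra), and the pair then engages gp130 (Il6st). LIF uses gp130 together with the LIF receptor chain (Lifr), and OSM uses gp130 with the OSM receptor chain (Osmr). All of these complexes act through JAK kinases and STAT3, and SOCS3 is a feedback inhibitor that binds gp130. In the brain, microglia are a known source of IL-6 after LPS. The question the groups address is how the response to a low LPS dose, a high LPS dose and fibronectin depends on CD14.

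The members lie on 4 chromosomes of GRCm38 (GENCODE vM21 annotation). Lif, at chr11:4257557-4272514, and Osm, at chr11:4236420-4241026, are neighbours on the plus strand. Il6 is at chr5:30013114-30019981 on the plus strand, Il6ra at chr3:89864059-89913196 on the minus strand and Il6st at chr13:112464070-112510086 on the plus strand. The antisense gene Gm42809 overlaps the 5′ end of Il6ra, and no source used here says whether reads were counted by strand, so reads of that overlap cannot be assigned to either gene. RefSeq (GRCm38.p6) promoter windows of 250 bases before to 50 bases after the start site matched 4 of the 5 members. The 250 bases before the start are printed for Il6 and Lif, the members with the widest range of expression, and capitals mark motif matches.
Il6, chr5:30012864-30013113, plus strand: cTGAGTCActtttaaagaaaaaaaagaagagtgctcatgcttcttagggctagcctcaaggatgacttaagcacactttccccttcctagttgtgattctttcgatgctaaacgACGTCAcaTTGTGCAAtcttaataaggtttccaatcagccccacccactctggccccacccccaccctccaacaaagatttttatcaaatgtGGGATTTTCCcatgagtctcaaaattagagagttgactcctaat
Lif, chr11:4257318-4257567, plus strand: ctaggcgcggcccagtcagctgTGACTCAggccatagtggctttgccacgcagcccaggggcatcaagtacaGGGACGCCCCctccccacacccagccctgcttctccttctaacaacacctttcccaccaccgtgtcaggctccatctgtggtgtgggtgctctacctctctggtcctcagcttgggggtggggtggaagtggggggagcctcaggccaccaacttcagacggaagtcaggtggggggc
Both strands of the whole windows were searched, and no 2 matches overlapped. In the Il6 sequence the capitals are, from left to right, an AP-1 match (TGANTCA) at the left end, the core of a cAMP response element (TGACGT, here on the minus strand) at 136 bases before the start, a C/EBP match (TTGNNCAA) at 128 bases and an NF-kB match, GGGATTTTCC, at 44 bases. In the Lif sequence they are an AP-1 match at 228 bases and an NF-kB match, GGGACGCCCC, at 178 bases. The Lif start used by RefSeq is not a transcript start in the GENCODE annotation. Of 32817 promoter windows of this length, 8.46% held the NF-kB motif, 7.81% the AP-1 motif, 6.4% the C/EBP motif and 7.51% the element's core. The windows of Il6ra and Il6st held none of these letters. None of the 4 windows held a STAT (TTCNNNGAA), IRF (GAAANNGAA) or TATAAA match, which 8.29%, 8.55% and 13.6% of all windows did.

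Library totals ran from 14939019 to 22143774 counts. Levels are CPM, a gene's counts relative to an effective library size, here set by edgeR's TMM factors, which ran from 0.648 to 1.35. Changes are log2 fold changes ± standard error from edgeR's quasi-likelihood test, with p-values adjusted by Benjamini-Hochberg over 13294 genes and a gene called at an adjusted p under 0.05. Cd14 stood between 338 and 5329 CPM in the 12 WT libraries and between 2.14 and 6.37 CPM in the 12 KO libraries, which accords with the labels. The 10 microglia markers summed to between 6980 and 10220 CPM, while astrocyte markers did not pass 41.7 CPM in any library. Of 12 listed markers of other leukocytes just 4 were in the count table, and their sum did not pass 0.682 CPM. Oligodendrocyte markers summed to between 120 and 454 CPM. Neuronal markers reached 35.5 to 44.5 CPM in the 4 KO libraries numbered 2 and at most 18.3 CPM elsewhere. In 3 libraries the ribosomal transcript Rn45s took 3.62% (WT LPS 0.1 ng/ml replicate 3), 5.92% (WT LPS 10 ng/ml replicate 3) and 8.21% (KO LPS 0.1 ng/ml replicate 2) of counts, against at most 0.784% in the others. With plain library totals in place of TMM, the median of all genes in WT cells given LPS 10 ng/ml moved from -0.01 to -0.80, and genes called there went from 3097 higher and 3473 lower to 1444 higher and 7408 lower. Between KO and WT cells it moved from 0.03 to 0.35 at LPS 10 ng/ml and from 0.02 to 0.68 with FN, where calls went from 2795 higher and 2335 lower to 6838 higher and 1117 lower. No called change of a member had the other sign under that scaling. The p-values measure the spread between these cell preparations.

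**Figure D1:**
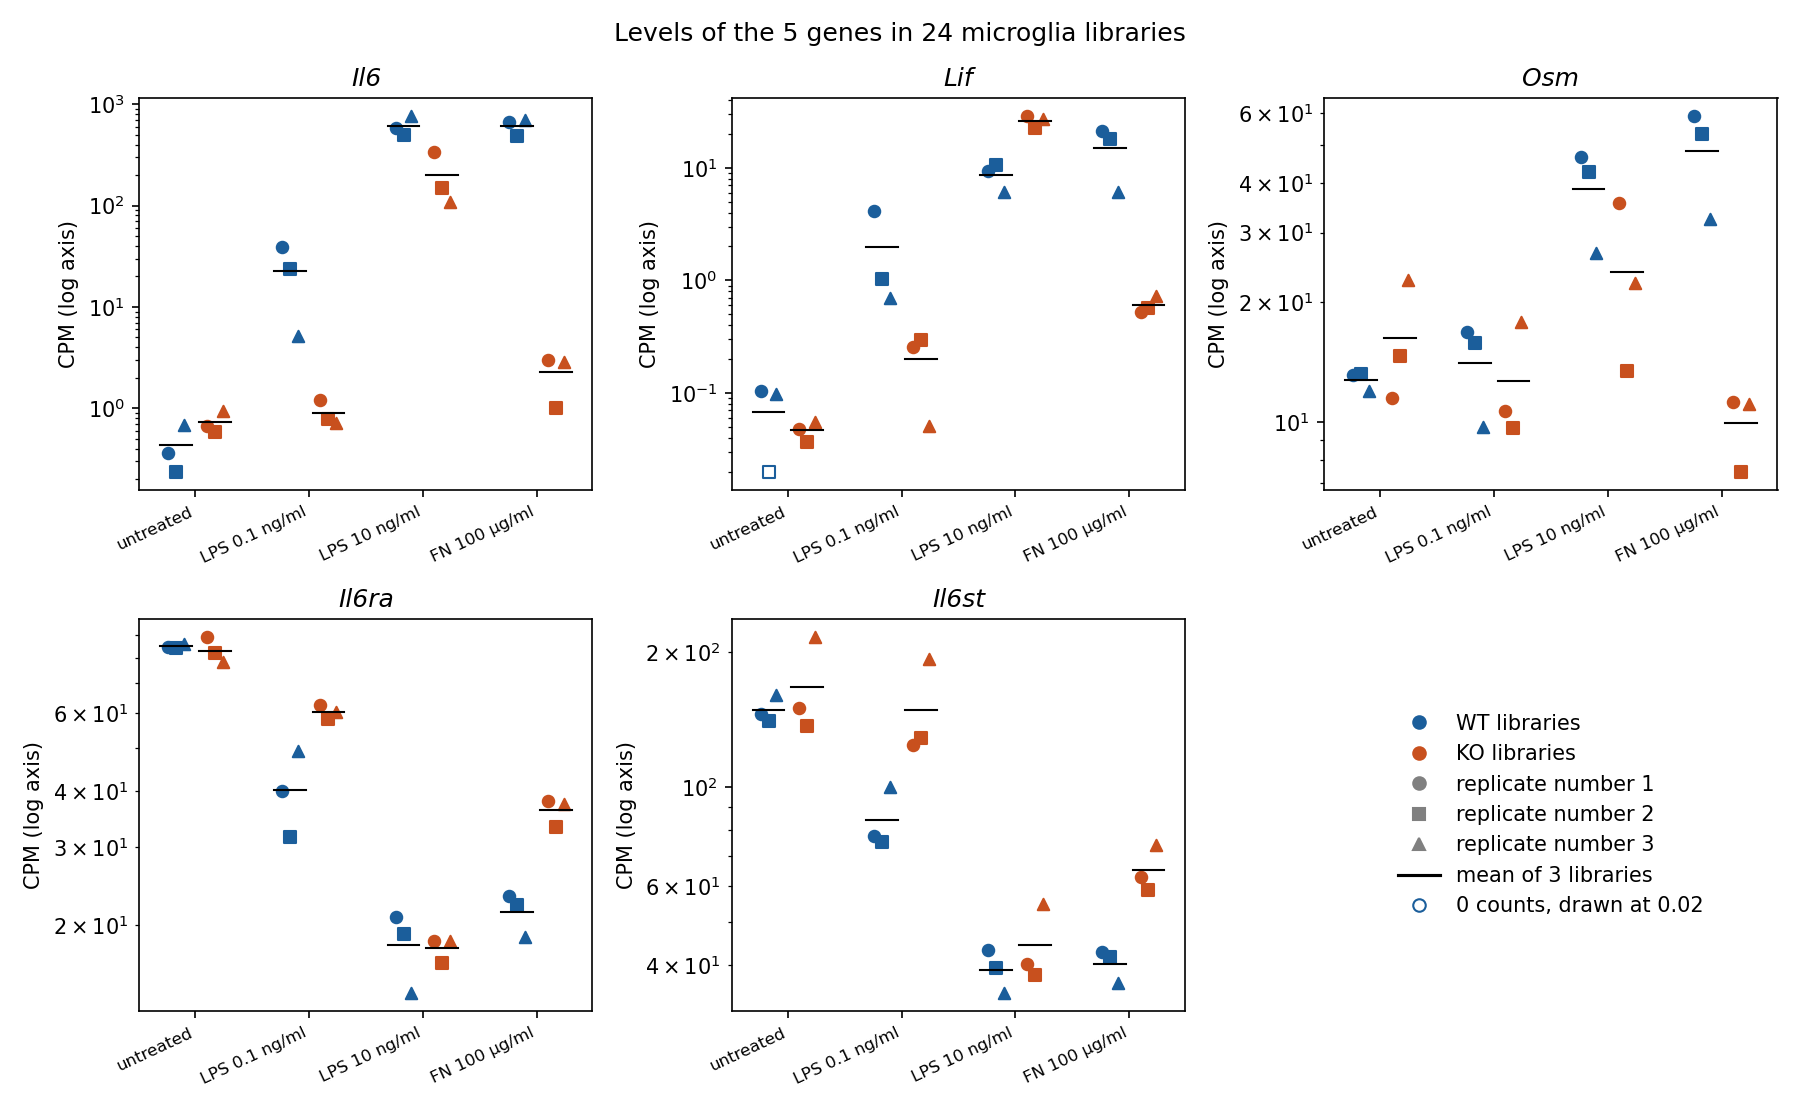
Level in CPM (log axis) of each of the 5 genes in every library, by treatment; blue is WT, orange is KO, symbols give the replicate number and bars the mean of 3 libraries. Il6 and Osm have their highest means in WT cells given FN or LPS 10 ng/ml, while Lif is highest in KO cells at LPS 10 ng/ml, and both receptor chains fall as the stimulus gets stronger.

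In WT cells, every called change of a ligand was a rise and every called change of a receptor chain a fall. The low LPS dose, 0.1 ng/ml, gave 4 calls of 5, Il6 and Lif higher and Il6ra and Il6st lower, where 15.6% of all tested genes were called. LPS 10 ng/ml gave 5 of 5, with Osm added to the rises, against 49.4% of all genes. FN also gave 5 of 5, against 50.2%. The comparisons with untreated cells share the same untreated libraries. Lif passed the filter on low counts through stimulated groups, so its rise over untreated cells is no result within these counts of members. Between the LPS doses in WT cells all 5 genes differed again in those directions, against 32.2% of all genes. Between FN and LPS 10 ng/ml in WT cells edgeR called none of the 5 and 0% of all genes. An unadjusted p under 0.05 was seen for 105 of 13294 genes, fewer than evenly spread p-values would give. Neither DESeq2 nor limma called any gene there.

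Il6, the ligand with the largest range, was under 1 CPM in every untreated library and was at least 485 CPM in WT cells after LPS 10 ng/ml or FN. Untreated WT libraries held 0.364, 0.237 and 0.691 CPM, from 7, 5 and 14 counts. At LPS 0.1 ng/ml WT levels were 38.9, 23.9 and 5.18 CPM in replicates 1, 2 and 3. All 3 were above every untreated library, and the third, one of the libraries rich in Rn45s, was the lowest. The rise was 5.70 ± 0.70 on the log2 scale, or 51.9-fold (adjusted p = 1.17e-05, edgeR). The 10 ng/ml dose gave WT libraries 583, 497 and 768 CPM, and FN gave 669, 485 and 694 CPM. These ranges overlapped each other and lay far above the lower dose. The rise over untreated cells was 10.46 ± 0.81 for LPS 10 ng/ml and the same to that precision for FN, and the difference between them was 0.00 ± 0.51 (95% interval -1.09 to 1.09).

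In KO cells Il6 followed a different order. The untreated libraries held 0.675, 0.587 and 0.943 CPM, which overlapped the WT range. LPS at 0.1 ng/ml left the gene at 1.20, 0.787 and 0.713 CPM, a change of 0.32 ± 0.69 (95% interval -1.14 to 1.78) that was not called. LPS at 10 ng/ml gave 336, 151 and 109 CPM, a called rise of 8.08 ± 0.73 (adjusted p = 7.40e-08, edgeR). With FN the KO libraries held 2.98, 1.02 and 2.88 CPM. That was above all untreated KO libraries, but the change of 1.64 ± 0.65 missed the threshold (adjusted p = 0.0992, edgeR). It was called by DESeq2 (adjusted p = 0.0286) and without the 3 libraries rich in Rn45s (adjusted p = 0.0370, edgeR).

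Set against WT cells at the same treatment, Il6 in KO cells stood at 3.96% of the WT mean at LPS 0.1 ng/ml, 32.2% at LPS 10 ng/ml and 0.372% with FN. No KO library overlapped the WT libraries at any of these stimuli. The differences were -4.63 ± 0.64 (adjusted p = 1.01e-04), -1.64 ± 0.53 (adjusted p = 0.0418) and -8.08 ± 0.71 (adjusted p = 8.11e-08) by edgeR. The call at LPS 10 ng/ml was close to the threshold. It was lost without low-count filtering, in a fit of the 2 groups alone, and without any single one of WT replicates 1, 2 and 3 or KO replicates 2 and 3, with adjusted p between 0.0592 and 0.194 in those fits. Ranked by mean level, Il6 ran from WT LPS 10 ng/ml and WT FN, which overlapped, through KO LPS 10 ng/ml and then WT LPS 0.1 ng/ml. The remaining 4 groups came next and each overlapped its neighbour: KO FN, KO LPS 0.1 ng/ml, KO untreated and WT untreated.

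Lif, a ligand of the LIF receptor, was rarer than Il6 and did not share its order. In untreated cells it held 2, 0 and 2 counts in the WT libraries and 1 count in each KO library. A fitted fold change against so few counts depends on a small added count, so rises over untreated cells are given as ratios of pooled counts with 95% intervals for counting error alone. WT libraries held 4.16, 1.02 and 0.705 CPM at LPS 0.1 ng/ml, a ratio of 27.9 (10.5 to 104). The 10 ng/ml dose gave 9.33, 10.6 and 6.15 CPM, a ratio of 134 (51.9 to 496). FN gave 21.4, 17.9 and 6.06 CPM, a ratio of 227 (88.1 to 835). In the FN group, replicate 3 was well below the others and just below the lowest library at LPS 10 ng/ml, so the groups overlapped. All 3 rises were called (adjusted p between 2.92e-07 and 2.87e-04, edgeR). The difference between the LPS doses, 2.16 ± 0.59 (adjusted p = 0.00878, edgeR), lost its call without WT LPS 0.1 ng/ml replicate 3 (1.75, adjusted p = 0.0506), without the 3 Rn45s-rich libraries (adjusted p = 0.0527) and in the fit of the 2 groups alone (adjusted p = 0.0584).

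The highest Lif levels of the series were in KO cells at LPS 10 ng/ml, at 28.9, 22.6 and 27.2 CPM. All 3 exceeded every WT library, including those treated with FN. Against untreated KO cells the pooled ratio was 570 (195 to 2768). The other KO groups were low: 0.256, 0.295 and 0.0509 CPM at LPS 0.1 ng/ml, from 6, 6 and 1 counts, and 0.523, 0.570 and 0.720 CPM with FN. The FN libraries were all above the untreated KO range, with a pooled ratio of 13.1 (4.15 to 66.7), and edgeR called that rise (adjusted p = 0.00656). On the log2 scale of deposited signal plus 1, which compresses low values, limma did not call it (adjusted p = 0.306). The LPS 0.1 ng/ml libraries overlapped the untreated ones and no change was called.

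Between the genotypes, Lif was lower in KO cells at LPS 0.1 ng/ml by -3.22 ± 0.68 (adjusted p = 0.00464) and with FN by -4.63 ± 0.67 (adjusted p = 1.91e-05), edgeR. The former call was lost without WT LPS 0.1 ng/ml replicate 1, which held 66 of the 98 WT counts (-2.05, adjusted p = 0.0605), in the fit of the 2 groups alone (adjusted p = 0.155) and by limma (-1.13, adjusted p = 0.0582). The high dose showed the opposite sign, with KO libraries 1.59 ± 0.57 above WT, or 3.01-fold (95% interval of the log2 difference 0.38 to 2.80). The groups did not overlap, but the adjusted p was 0.0675 by edgeR. With the replicate number as a block the same comparison was called (1.65, adjusted p = 0.00601), as it was by DESeq2 (adjusted p = 0.0319), by limma (adjusted p = 0.00711), with plain library totals (adjusted p = 0.0166) and in the fit of the 2 groups alone (adjusted p = 0.0173). It was not called with RLE scaling (adjusted p = 0.0713, edgeR) or without low-count filtering. Nor was it called with any single library left out (adjusted p between 0.0958 and 0.194, edgeR). Over all alternatives its value stayed between 1.40 and 1.90.

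Because Il6 and Lif moved in opposite directions between the genotypes at LPS 10 ng/ml, their ratio within a library, which needs no scaling between libraries, was also computed; it was chosen after the values had been seen. WT libraries at LPS 10 ng/ml held 1.60, 2.14 and 0.800 Lif counts per 100 Il6 counts. KO libraries held 8.61, 14.97 and 25.1. The lowest KO value was above the highest WT value. This was set in advance by the levels above, since every KO library had less Il6 and more Lif than every WT library. The ratio is therefore no separate support for either difference. An exact permutation test of 3 libraries against 3 cannot give a two-sided p under 0.10, so none is given. WT cells with FN held 3.20, 3.68 and 0.873 Lif counts per 100 Il6 counts, a range that overlapped LPS 10 ng/ml.

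**Figure D2:**
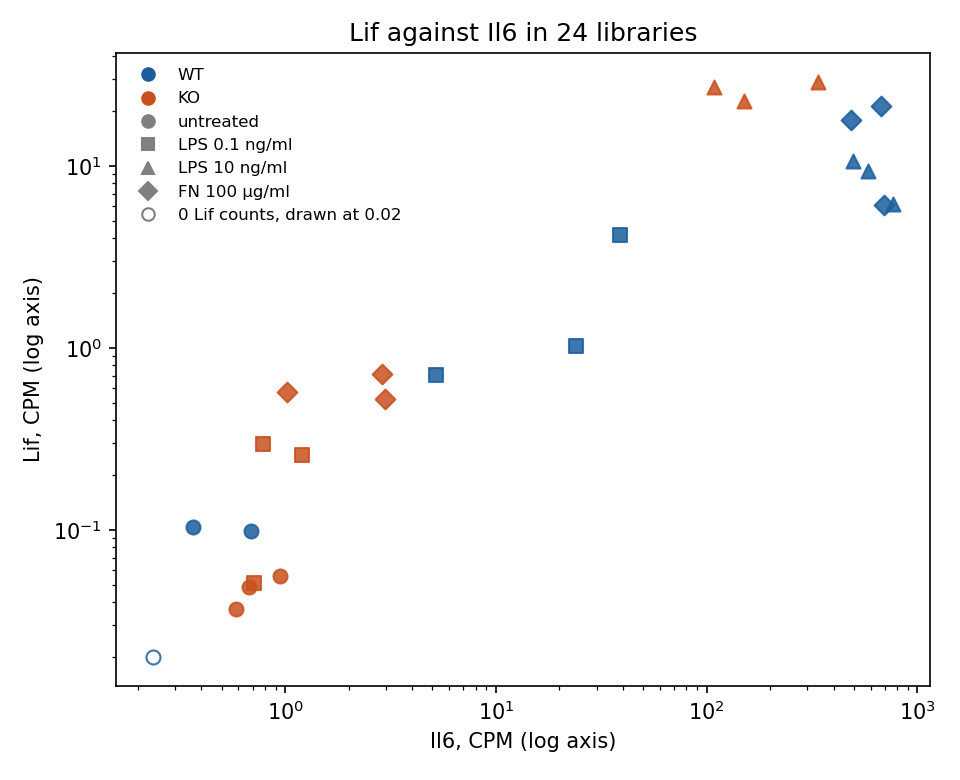
Lif against Il6 in CPM (both axes logarithmic), 1 point per library; colour gives the genotype and shape the treatment. The 3 KO libraries at LPS 10 ng/ml lie at 22.6 to 28.9 CPM of Lif and 109 to 336 CPM of Il6, above and to the left of the WT libraries at the same dose.

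Osm, the third ligand, was already expressed in untreated cells and moved less. Untreated WT libraries held 13.1, 13.2 and 11.99 CPM. LPS at 0.1 ng/ml left them at 16.8, 15.8 and 9.72 CPM, on both sides of the untreated range, and the change of 0.14 ± 0.35 was not called. LPS at 10 ng/ml raised it to 46.5, 42.6 and 26.6 CPM, and FN to 59.1, 53.1 and 32.5 CPM. Both ranges were above all untreated libraries, and in both the library numbered 3 was the lowest. The rises were 1.60 ± 0.36 (adjusted p = 0.00103) and 1.92 ± 0.36 (adjusted p = 1.98e-04) by edgeR, or 3.02-fold and 3.78-fold. With plain library totals they were 0.80 and 1.12 and still called, against medians of all genes of -0.80 and -0.78.

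No stimulus gave a called rise of Osm over untreated KO cells. Untreated KO libraries spread from 11.5 to 22.7 CPM, LPS 0.1 ng/ml gave 10.6, 9.64 and 17.8 CPM, and LPS 10 ng/ml gave 35.6, 13.5 and 22.4 CPM. The last group straddled the untreated range, with a change of 0.55 ± 0.35 (95% interval -0.20 to 1.29, adjusted p = 0.237, edgeR). Against the lower dose it was 0.91 ± 0.35 higher, just short of a call (adjusted p = 0.0522, edgeR), and it was called with a replicate block nested in genotype (0.90, adjusted p = 0.00677), without KO LPS 0.1 ng/ml replicate 3 (1.23, adjusted p = 0.0213) and without KO LPS 10 ng/ml replicate 2 (1.19, adjusted p = 0.0137). FN gave 11.3, 7.49 and 11.1 CPM, all below every untreated KO library. That difference of -0.71 ± 0.35 was not called by edgeR without a block (adjusted p = 0.204) and was called with the nested block (-0.72, adjusted p = 0.0393). A called genotype difference in Osm was seen with FN, at -2.28 ± 0.37 (adjusted p = 6.58e-05, edgeR), where KO stood at 20.6% of the WT mean. With LPS 10 ng/ml the difference was -0.70 ± 0.35 with overlapping libraries (95% interval -1.44 to 0.05).

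Il6ra, the chain that gives a cell its response to IL-6, fell in steps with the stimulus. Untreated libraries were close together, at 84.4, 84.1 and 86.1 CPM in WT and 89.0, 81.8 and 78.0 CPM in KO cells. In WT cells LPS 0.1 ng/ml gave 40.1, 31.6 and 49.3 CPM, LPS 10 ng/ml 20.8, 19.1 and 14.1 CPM, and FN 23.2, 22.2 and 18.8 CPM. No treated WT library reached the untreated range, and LPS 10 ng/ml and FN overlapped each other. The falls were -1.07 ± 0.14 (adjusted p = 3.12e-05), -2.24 ± 0.15 (adjusted p = 1.08e-09) and -1.99 ± 0.15 (adjusted p = 3.59e-09) by edgeR, which is a level 4.72-fold lower at LPS 10 ng/ml. In KO cells LPS 0.1 ng/ml gave 62.7, 58.3 and 60.2 CPM, all below the untreated KO libraries and all above the WT libraries at that dose. The change of -0.46 ± 0.14 was not called (adjusted p = 0.282, edgeR) but was called with the nested replicate block (-0.46, adjusted p = 0.0387) and by DESeq2 (adjusted p = 0.0386). LPS 10 ng/ml gave 18.4, 16.4 and 18.4 CPM, which lay inside the WT range at that dose, and the fall was -2.23 ± 0.15, an interaction of 0.01 ± 0.20 with the WT fall. FN gave 38.0, 33.2 and 37.5 CPM, a fall of -1.20 ± 0.15 (adjusted p = 1.10e-05, edgeR).

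Il6st, the gp130 chain shared by the whole family, had the same order of groups within WT cells. WT libraries held 146, 141 and 160 CPM untreated, 77.5, 75.2 and 99.8 at LPS 0.1 ng/ml, 43.1, 39.3 and 34.6 at LPS 10 ng/ml, and 42.6, 41.6 and 36.5 with FN. Every treated library was below every untreated one. The falls were -0.82 ± 0.19 (adjusted p = 0.00567), -1.93 ± 0.20 (adjusted p = 1.85e-07) and -1.89 ± 0.20 (adjusted p = 2.35e-07) by edgeR. In KO cells the library numbered 3 was the highest in all 4 treatments. Those libraries held 150, 136 and 216 CPM untreated, and 124, 128 and 193 CPM at LPS 0.1 ng/ml, which overlapped (-0.17 ± 0.19, 95% interval -0.58 to 0.23). LPS 10 ng/ml brought KO cells to 40.2, 38.0 and 54.7 CPM and FN to 62.7, 58.8 and 74.1 CPM. Both were falls, by -1.92 ± 0.20 (adjusted p = 3.71e-07) and -1.36 ± 0.20 (adjusted p = 6.91e-05), edgeR. Whether the lower receptor RNA came from fewer cells that carry it or from less RNA per cell cannot be told apart in bulk libraries. The same limit holds for the other genes.

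KO cells held more receptor RNA than WT cells at the low LPS dose and with FN, and not detectably so at the high dose. These are differences in level. Of the matching differences in response, edgeR without a block called that of Il6ra with FN (adjusted p = 0.00766). It did not call that of Il6st with FN or those of both chains at LPS 0.1 ng/ml. At LPS 0.1 ng/ml KO exceeded WT by 0.58 ± 0.14 for Il6ra (adjusted p = 0.0136, edgeR) and by 0.82 ± 0.19 for Il6st (adjusted p = 0.0100, edgeR). Both of these calls were lost without WT replicate 1, without WT replicate 2 and in the fit of the 2 groups alone, and that of Il6st also without KO replicate 3, with adjusted p between 0.0627 and 0.159. With FN the differences were 0.76 ± 0.14 for Il6ra (adjusted p = 3.43e-04, edgeR) and 0.70 ± 0.19 for Il6st (adjusted p = 0.00746, edgeR). With plain library totals they were 1.42 and 1.35, beside a median of all genes of 0.68. For LPS 10 ng/ml they were -0.02 ± 0.15 (95% interval -0.33 to 0.29) and 0.18 ± 0.19 (95% interval -0.23 to 0.59).

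Levels of different genes were compared per kilobase of annotated exon. That length joins the exons of all annotated transcripts of a gene and may exceed that of the RNA expressed, so orders between genes are approximate. On that scale untreated WT cells held 13.4 ± 0.92 CPM of Il6st, 9.82 ± 0.12 of Il6ra, 5.62 ± 0.29 of Osm, 0.177 ± 0.096 of Il6 and 0.0155 ± 0.013 of Lif (SD, n = 3). With LPS 10 ng/ml the order in WT cells was Il6 at 254 ± 57.2 CPM per kilobase, Osm at 17.0 ± 4.63, Il6st at 3.51 ± 0.38, Il6ra at 2.08 ± 0.41 and Lif at 2.0 ± 0.53, and the levels of Il6ra and Lif differed by less than their spread. KO cells at that dose held 81.7 ± 49.8 CPM per kilobase of Il6 and 6.03 ± 0.76 of Lif. The ratio of the receptor chains was somewhat lower in WT cells at both LPS doses. Il6ra counts per 100 Il6st counts were 58.0, 59.8 and 53.8 in untreated WT libraries. They were 51.7, 41.95 and 49.4 at LPS 0.1 ng/ml and 48.3, 48.6 and 40.6 at LPS 10 ng/ml. Neither dose overlapped the untreated WT libraries. KO libraries held 59.3, 60 and 36.1 untreated and 45.7, 43.1 and 33.6 at LPS 10 ng/ml. The KO ranges overlapped, although each treated library was below the untreated one of its number.

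**Figure D3:**
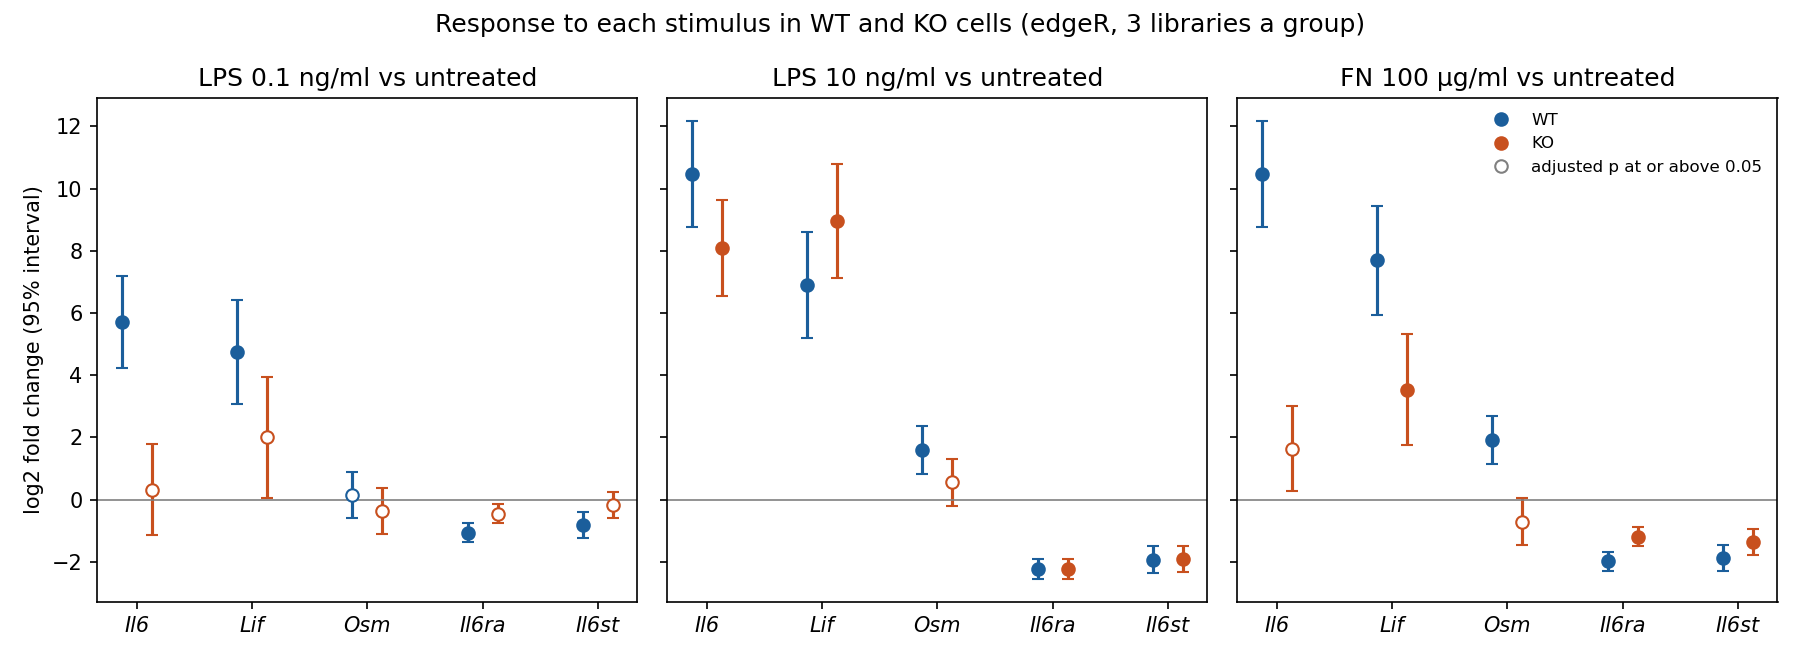
Log2 fold change of each gene against untreated cells with its 95% interval for the 3 stimuli, WT in blue and KO in orange; open points were not called. With FN the WT and KO points of the 3 ligands stand apart. At LPS 0.1 ng/ml those of Lif, Osm and Il6st have overlapping intervals, and at LPS 10 ng/ml those of Il6ra and Il6st lie close together.

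Counted over the members, KO cells at LPS 0.1 ng/ml had 0 of 5 genes called against untreated cells by edgeR, where 0.73% of all genes were called; Il6ra and Lif had an unadjusted p under 0.05, and DESeq2 called Il6ra. LPS 10 ng/ml gave KO cells 4 of 5 called (all but Osm, against 42.9% of all genes), and with FN 3 of 5 (Lif higher, Il6ra and Il6st lower, against 16.4%). Lif is in both counts but passed the filter through stimulated groups, so its rises over untreated cells are no result within them. Between the LPS doses in KO cells 4 were called, against 36.7% of all genes. FN and LPS 10 ng/ml, between which no member was called in WT cells, differed for 4 members in KO cells, against 17% of all genes. With FN the KO cells held less Il6 (-6.45 ± 0.67), Lif (-5.43 ± 0.69) and Osm (-1.26 ± 0.36) and more Il6ra (1.03 ± 0.15) than with LPS 10 ng/ml. The Osm call was lost without KO LPS 10 ng/ml replicate 1 (-0.85, adjusted p = 0.151), without KO FN replicate 2 (-1.09, adjusted p = 0.0987) and in the fit of the 2 groups alone (adjusted p = 0.0917), edgeR. Il6st was 0.56 ± 0.19 higher with FN, just short of a call (adjusted p = 0.0548, edgeR), and was called with the nested replicate block (0.57, adjusted p = 2.58e-04) and without KO LPS 10 ng/ml replicate 3 (0.74, adjusted p = 0.0227).

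Between the genotypes, 0 of 5 members differed in untreated cells (0.00752% of all genes did, which was Cd14), with no member at an unadjusted p under 0.05 and none called by DESeq2 or limma. At LPS 0.1 ng/ml 4 differed (9.3% of all genes), at LPS 10 ng/ml 1 did (Il6, 15.9%), and with FN all 5 did (38.6%). The test of whether the response itself differed between the genotypes, the interaction, was called for 1 member at LPS 0.1 ng/ml (2.29% of all genes), for 0 at LPS 10 ng/ml (5.28%) and for 4 with FN (23.1%). The called interaction at LPS 0.1 ng/ml was that of Il6, -5.38 ± 0.98 (adjusted p = 0.00405, edgeR). With the nested replicate block those of Il6ra (0.62, adjusted p = 0.0242) and Il6st (0.65, adjusted p = 0.00589) were called there as well, and that of Il6ra was called without WT LPS 0.1 ng/ml replicate 3 (adjusted p = 0.0222). For LPS 10 ng/ml the interaction of Il6 was -2.38 ± 0.92 (adjusted p = 0.178, edgeR; 0.0400 by DESeq2), that of Lif 2.07 ± 1.28 and that of Osm -1.05 ± 0.50. Il6 and Osm there had unadjusted p of 0.0186 and 0.0491. With FN the interactions were -8.83 ± 0.98 for Il6, -4.16 ± 1.46 for Lif, -2.63 ± 0.50 for Osm and 0.79 ± 0.20 for Il6ra. The interaction of Lif rests on untreated groups with 4 and 3 counts, depends on the small count added in the fit, and lost its call with the nested replicate block (-4.13, adjusted p = 0.1253), without low-count filtering (adjusted p = 0.0630) and without any single untreated or KO FN library or WT FN replicate 1 or 2. The interaction of Il6st with FN was 0.53 ± 0.27 (adjusted p = 0.195, edgeR) and was called with the nested replicate block (0.55, adjusted p = 0.00444), without KO untreated replicate 3 (0.75, adjusted p = 0.0482) and with plain library totals (1.18, adjusted p = 0.00309).

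Of the other receptors of the family, Lifr, the partner of gp130 for LIF, also fell with stimulation. Untreated libraries held 11.7, 11.3 and 13.7 CPM in WT and 12.01, 12.2 and 11.0 CPM in KO cells. After LPS 10 ng/ml they held 2.64, 3.29 and 3.76 CPM in WT and 2.21, 3.43 and 4.27 CPM in KO cells, falls of -1.92 ± 0.29 (adjusted p = 2.20e-05) and -1.83 ± 0.29 (adjusted p = 4.99e-05), edgeR. With FN the KO fall of Lifr was -1.74 ± 0.29 and the WT fall -1.74 ± 0.29, an interaction of -0.01 ± 0.40. KO and WT libraries with FN overlapped for Lifr. Osmr, the OSM receptor chain, held between 0 and 13 counts in any library and was not tested. Il11ra1, Cntfr and Il27ra were tested and not called against untreated cells in any group. Of the 7 chains that form complexes with gp130 or carry it, 6 were tested. Il6ra, Il6st and Lifr were the 3 called with LPS 10 ng/ml in both genotypes, all lower. That count of 3 of 6 is near the share of all genes called there, 49.4% in WT and 42.9% in KO cells. The median was -1.23 in WT and -1.08 in KO cells beside -0.01 for all genes.

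Of 9 other ligands of the family, 6 did not pass the filter on low counts. Il27, Ebi3 and Clcf1 did, Clcf1 through stimulated groups, since it held at most 5 counts in any untreated library, so the number of rises among them is no result about the ligands. Il27 is the p28 chain of interleukin-27 and overlaps Apobr on the opposite strand, so reads there could not be assigned by strand. It held 0.935, 0.568 and 0.888 CPM in untreated WT libraries and 786, 725 and 731 CPM at LPS 10 ng/ml. KO libraries at that dose held 231, 166 and 135 CPM, below all WT libraries, and the interaction of -2.67 ± 0.58 was called (adjusted p = 0.0105, edgeR). Ebi3, which pairs with p28, rose in WT (2.90 ± 0.35) and KO cells (2.91 ± 0.35) at that dose, with an interaction of 0.01 ± 0.45. Clcf1, a ligand of the CNTF receptor complex, rose by 6.37 ± 0.61 in WT and by 5.99 ± 0.60 in KO cells. Il11, Cntf and Ctf1 held at most 6 counts in any library and were not tested.

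Downstream of the receptors, most JAK and STAT genes rose in WT cells, and the rise of Stat3, the main transducer of gp130, differed between the genotypes. Of 13 JAK-STAT genes, 9 rose and 2 fell at LPS 10 ng/ml in WT cells, where 49.4% of all genes were called in either direction, and 7 rose and 1 fell in KO cells, against 42.9%. The medians were 1.06 and 0.38 beside -0.01 for all genes. Stat3 held 366, 398 and 458 CPM in WT cells at that dose and 180, 160 and 124 CPM in KO cells, against 116 to 143 CPM in untreated WT libraries. Its rise was 1.70 ± 0.15 in WT and 0.22 ± 0.15, not called, in KO cells, and the interaction was -1.48 ± 0.21 (adjusted p = 4.51e-04, edgeR). Jak2, a kinase bound to these receptors, rose by 4.50 ± 0.25 and 3.78 ± 0.24, and Stat5a by 4.16 ± 0.43 and 3.05 ± 0.41. Grb2, an adaptor, was not called in either (-0.10 ± 0.27 and 0.23 ± 0.27).

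Feedback inhibitors moved in both directions. Of 9, 5 rose and 3 fell in WT cells given LPS 10 ng/ml, against 49.4% of all genes called, and 5 rose and 1 fell in KO cells, against 42.9%. Their medians were 0.54 and 0.44. Socs3, the gp130 inhibitor, went from 4.29 to 9.35 CPM in untreated WT libraries to 2542, 2050 and 2528 CPM, and in KO cells to 1355, 926 and 923 CPM, changes of 8.54 ± 0.56 and 7.85 ± 0.55. Socs3 was called in KO cells at LPS 0.1 ng/ml as well (2.80 ± 0.44, adjusted p = 0.00183, edgeR) and with FN (5.69 ± 0.50, adjusted p = 2.19e-07, edgeR). Socs1, an inhibitor of JAK kinases, rose by 8.75 ± 0.79 and 6.61 ± 0.73 at LPS 10 ng/ml and was lower in KO than in WT cells by -1.97 ± 0.56 (adjusted p = 0.0219, edgeR). Cish rose by 8.40 ± 0.75 in WT and 7.75 ± 0.74 in KO cells.

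Of 18 listed targets of STAT3, 15 rose and 2 fell in WT cells given LPS 10 ng/ml, and 14 rose and 2 fell in KO cells, with medians of 3.30 and 3.33, where 49.4% and 42.9% of all genes were called. Between the genotypes at that dose 3 of the 18 differed, a share near the 15.9% of all genes called: Il1rn, the interleukin-1 receptor antagonist, was lower in KO cells (-2.43 ± 0.66), as was Bcl3 (-0.82 ± 0.25), and Myc was higher (1.51 ± 0.36). The receptor-shedding genes, which act in release of soluble IL-6 receptor, rose in both genotypes: Adam17, the protease, by 1.37 ± 0.18 and 1.39 ± 0.18, Rhbdf2, its carrier iRhom2, by 3.40 ± 0.15 and 2.67 ± 0.15, and Rhbdf1 by 1.41 ± 0.22 and 1.56 ± 0.22. In all, 3 of the 5 rose and Adam10 fell in each genotype, against the same shares of all genes.

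Most regulators of Il6 transcription and mRNA decay rose in both genotypes. Of 16 listed genes, 15 were tested; at LPS 10 ng/ml 13 rose and 1 fell in WT cells, against 49.4% of all genes called, and 13 rose and 2 fell in KO cells, against 42.9%. Their medians were 2.49 and 2.08. Nfkbiz, an NF-kB cofactor for Il6, reached 1383, 1231 and 1443 CPM in WT and 1554, 1429 and 1563 CPM in KO cells, with rises of 4.62 ± 0.30 and 5.27 ± 0.31. Arid5a, an RNA-binding protein that stabilises Il6 mRNA, reached 211, 208 and 228 CPM in WT and 43.7, 18.6 and 8.88 CPM in KO cells. No KO library overlapped WT, and the difference of -3.19 ± 0.49 was called (adjusted p = 2.01e-04, edgeR), as was the interaction (-2.79 ± 0.67, adjusted p = 0.0175). Irf1 and Atf3 were lower in KO cells by -1.41 ± 0.27 and -1.25 ± 0.24. Nfkb1 was not called between the genotypes (-0.21 ± 0.17). In KO cells with FN, 9 of the 15 rose and 2 fell, against 16.4% of all genes called. Nfkbiz rose by 3.96 ± 0.29 (adjusted p = 3.59e-08, edgeR) and Arid5a was at -0.53 ± 0.48 (adjusted p = 0.571, edgeR). Between the genotypes with FN, 9 of the 15 were lower in KO cells, Nfkbiz and Arid5a among them. In that comparison 1 was higher, and 38.6% of all genes were called.

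The low LPS dose left some of these genes higher in KO cells although no member was called. Of the 18 STAT3 targets 6 rose, against 0.73% of all genes called: Bcl3 (2.44 ± 0.27), Icam1 (2.64 ± 0.31), Junb (1.27 ± 0.25), Pim1 (1.85 ± 0.36), Tnfaip3 (1.59 ± 0.31) and Socs3. Of the 15 tested regulators of Il6, 3 rose: Nfkbiz (1.91 ± 0.27), Nfkb1 (0.99 ± 0.17) and Zc3h12a, an RNase that degrades Il6 mRNA (1.21 ± 0.26). Rhbdf2 rose by 0.76 ± 0.14.

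**Figure D4:**
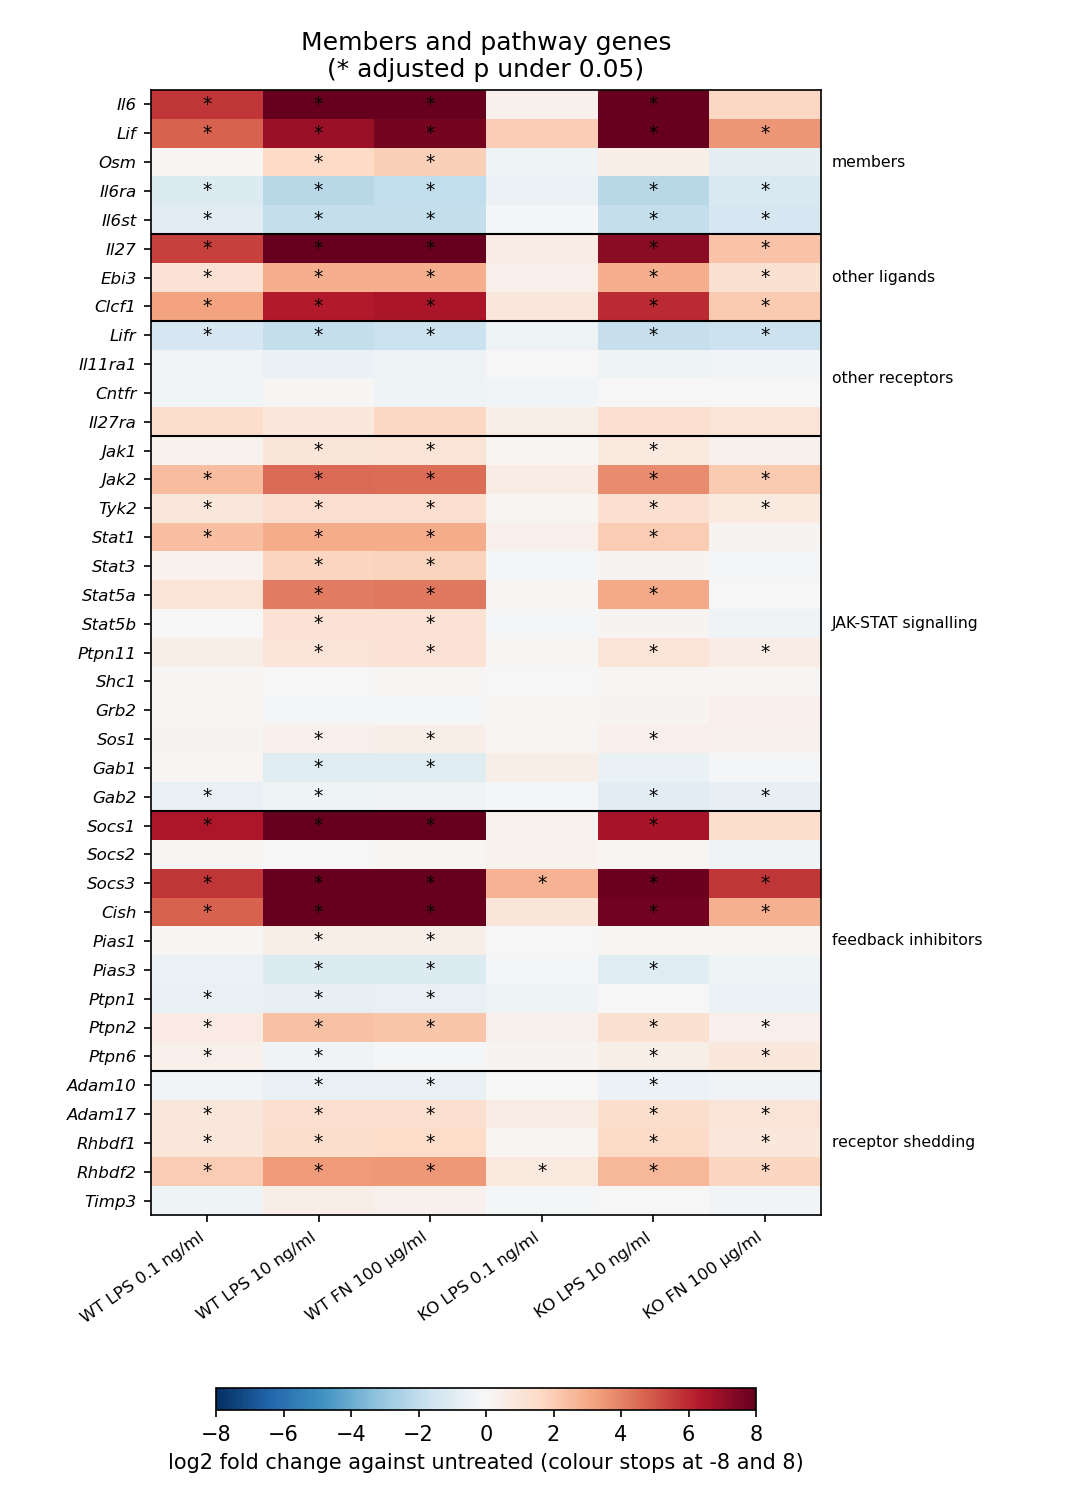
Log2 fold change against untreated cells (colour) of the 5 members and the tested genes of 5 pathway lists, for 3 stimuli in WT and KO cells; an asterisk marks a call. The ligands, Jak2, Socs1, Socs3 and Cish are red and Il6ra, Il6st and Lifr blue in WT cells, and the column of KO cells at LPS 0.1 ng/ml holds 2 calls among the genes drawn, Socs3 and Rhbdf2.

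Across the 24 libraries, log2 levels of Il6 and Lif had a Pearson r of 0.929, and Il6ra and Il6st of 0.957. Il6 with Il6ra had -0.917, and Osm with Il6 0.822. These values describe libraries that share treatments, preparations and scaling. Of 10169 genes that averaged 5 CPM or more in their highest group, those with the most similar pattern to Il6 were Il27 (r = 0.994), Rnd1, Cish, Edn1 and Peli1. For Lif they were Gm14047 (0.974), Il23a, Has1, Map3k5 and Kdm4a. For Osm they were Acap2 (0.948), Mdfic, Prkd3, Akap13 and Stom. Il6ra was most like 4930444A02Rik (0.983), Cmas, Lpar5, Tpcn1 and Rtn4rl1, and Il6st most like Wipf1 (0.981), Scrn3, St6gal1, Gpr183 and Mfsd11.

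The summed level of fibroblast and vascular markers was higher after LPS 10 ng/ml in both genotypes, and with FN in WT cells. Their sum over 9 listed genes was 9.32 to 11.0 CPM in untreated WT libraries, 23.2 to 53.5 after LPS 10 ng/ml and, with FN, 19.6 to 47.2. KO libraries summed to 6.10 to 12.1 CPM untreated, 20.9 to 37.3 after LPS 10 ng/ml and, with FN, 3.24 to 10.5. Of the 9, 5 (Col1a1, Col1a2, Dcn, Lum and Cldn5) were under 1 CPM in every library, and the called rises in WT cells at LPS 10 ng/ml were those of Pdgfrb and Kdr. In KO cells at that dose Pdgfrb alone was called higher, and the median of the 4 tested markers was 0.087. With FN in KO cells Pdgfrb was called higher too, while the median was -0.735. The part of such cells in the ligand levels was not tested. Oligodendrocyte markers summed to 137 to 363 CPM in untreated WT libraries and 188 to 454 at LPS 10 ng/ml, and in KO cells to 134 to 183 and 120 to 172. Among the 10 microglia markers, Cx3cr1 was the single one called with LPS 10 ng/ml in WT cells, and it was lower; in KO cells Cx3cr1, P2ry12 and Trem2 were lower and Tmem119 higher. With FN, Cx3cr1 (-2.50 ± 0.22), P2ry12 (-1.14 ± 0.42) and Tmem119 (-1.10 ± 0.44) fell in WT cells. Between the genotypes with FN, Cx3cr1 (2.45 ± 0.22), Tmem119 (1.66 ± 0.45) and Csf1r (0.57 ± 0.20) were higher in KO cells, and the interactions of these 3 were called. The part of these changes in the results with FN was not tested.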

How the data were processed

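RNA of primary mouse microglia was sequenced from TruSeq libraries on a HiSeq2000, per the labels' protocols. Per the submitters' processing notes, the authors worked on mm10 with Bowtie2 2.1.0, HTSeq 0.5.4, DESeq, SAMtools 0.1.19, FastQC 0.10.0 and CASAVA 1.8.2; the annotation and strand setting are not given in the sources used here. The deposited count table holds whole read counts per gene symbol. The deposited normalized signal of 12889 genes is, with a residual of at most 0.144, those counts over a factor of each library.

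Counts were tested with edgeR 4.0.16 (R 4.3.3; TMM, filterByExpr with a minimum count of 10 and total of 15, robust quasi-likelihood fit of 8 groups, 16 residual degrees of freedom) in 17 contrasts, each adjusted over 13294 genes. Standard errors are the absolute log2 fold change over the square root of F. Alternatives were DESeq2 1.42.0, RLE scaling, limma 3.58.1 on log2 of the signal plus 1, each library left out, fits that hold just the compared groups, no low-count filter or one of 5 CPM in 3 libraries, and a block for the replicate number, common to both genotypes or nested in genotype. Library totals and a fit without the 3 libraries rich in Rn45s were chosen after seeing the data. Exon lengths came from GENCODE vM21, and patterns were compared on log2(CPM + 0.5). The script was tested on simulated data.

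The members, lists and naming rule were chosen with earlier results of these data known. Always named were the members, Lifr, Osmr, Il27 and Cd14; from each list up to 3 called genes with the largest change and 1 uncalled gene with the highest level were eligible in WT and KO cells at LPS 10 ng/ml and between them, and the 5 genes most like each member. Other genes named in the text (Ebi3, Clcf1, Il11, Cntf, Ctf1, Cntfr, Il27ra, Adam10, Junb, Tnfaip3 and the markers) were named to account for a list after their values were seen.

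Replicate numbers come from the labels. Over 9582 genes, deviations from the group means correlated at 0.653 to 0.968 between libraries of the same number and genotype. Other numbers of the same genotype gave -0.7911 to 0.410. Between genotypes at the same treatment, the same number gave 0.231 to 0.884 and other numbers -0.7965 to 0.755, which overlapped. In 24 of 24 libraries the strongest correlation within the genotype was with a library of the same number. The numbers thus pair the libraries by the data within each genotype. No block is in the reported fit, which treats libraries as independent. Libraries of 1 group differed beyond sampling noise (chi-square per gene of at least 36.8), so none was counted as a repeat. Library depth sets the counting error of Lif and Osmr; intervals on pooled counts cover counting error only.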

Additional observations from a re-analysis of the deposited data

Results flagged for a closer look

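The response to a stimulus differed between the genotypes by the interaction test of edgeR for 4 members. For Il6 at LPS 0.1 ng/ml the KO minus WT difference in log2 fold change was -5.38, from a rise of 5.70 in WT and 0.32 in KO cells. With FN it was -8.83, from 10.46 in WT and 1.64 in KO cells. For Lif with FN the difference was -4.16, from untreated groups of 4 and 3 pooled counts, and for Osm with FN it was -2.63, from 1.92 in WT and -0.71 in KO cells. For Il6ra with FN it was 0.79, from falls of -1.99 in WT and -1.20 in KO cells. In each case all 3 KO libraries with the stimulus lay on 1 side of all 3 WT libraries. That describes levels under the stimulus, not the interaction. The cases were picked by a test on the same libraries, so it is no separate support.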

How the results depend on the processing

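Of 1427 refits of the 85 fold changes of members, 38 lost and 31 gained a call and 29 changed sign; the causes were not tested. The number of members called moved by over 1.5 times, or from or to 0, in 5 contrasts. Between KO and WT at LPS 10 ng/ml (1 called) it was 0 without the filter, 2 with the replicate block, library totals, DESeq2 or limma, and 0 to 1 with a library left out. For KO at LPS 0.1 ng/ml against untreated (0 called) it was 1 with the nested replicate block and 1 with DESeq2. For the interaction at LPS 0.1 ng/ml (1 called) it was 3 with the nested replicate block, 2 without the libraries rich in Rn45s, 2 with DESeq2 and 1 to 2 with a library left out. Between KO and WT at LPS 0.1 ng/ml (4 called) it was 1 in the groups alone and 1 to 4 with a library left out. The interaction at LPS 10 ng/ml (0 called) had 1 by DESeq2. It moved by 1 in further contrasts: KO LPS 10 against 0.1 ng/ml had 4 to 5, KO FN against LPS 10 ng/ml 3 to 5, KO FN against untreated 2 to 4, the interaction with FN 3 to 5 and the WT LPS doses 4 to 5. The paired fits changed the calls given beside the results and no other.

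The sign changes were in values that were not called. The interaction at LPS 10 ng/ml was, for Il6ra and Il6st, -0.016 and -0.014 with RLE scaling, -0.138 and -0.066 without the Rn45s-rich libraries, and -0.021 and -0.015 by DESeq2; leaving out a library gave -0.138 to 0.13 for Il6ra and -0.166 to 0.241 for Il6st. Between KO and WT at LPS 10 ng/ml Il6ra was 0.001 without the filter, 0.298 with library totals and -0.17 to 0.098 with a library left out. Osm in WT at LPS 0.1 ng/ml was -0.114 with library totals and -0.001 to 0.354 with a library left out, and between KO and WT at that dose 0.041 and -0.477 to 0.012. Il6st between FN and LPS 10 ng/ml in WT was -0.033 without the Rn45s-rich libraries and -0.033 to 0.124 with a library left out. With a library left out, Il6st in KO at LPS 0.1 ng/ml was -0.411 to 0.052, and between untreated KO and WT Il6ra was -0.087 to 0.009 and Il6st -0.056 to 0.3. Depth limits Lif in untreated cells and Osmr, which rest on few counts.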
